A study of Mus musculus with 44 samples.

Results

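Fragments of the less abundant transfer RNAs of the mouse hypothalamus are described here, across 13 amino acids and 44 small RNA libraries. They are the tRNA fragments (tRFs) whose list of source tRNAs in the deposited count table names a single amino acid among alanine (Ala), arginine (Arg), asparagine (Asn), aspartate (Asp), cysteine (Cys), glutamine (Gln), isoleucine (Ile), methionine (Met), phenylalanine (Phe), proline (Pro), threonine (Thr), tryptophan (Trp) and tyrosine (Tyr), and whose counts sum to at least 220 over the 44 libraries. The rule kept 168 of 17051 tRFs, which hold 258951 of 4569025 tRF counts, or 5.67%. The fragments were selected on this summed count, which ran from 221 to 33878 with a median of 504, so their abundance is a description and not a result. Just inside the threshold 11 fragments had 220 to 239 counts, and just outside it 8 fragments had 200 to 219 counts, of which the highest had 218.

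The libraries came from snap-frozen hypothalamus of C57Bl/6J mice in 3 groups. The AM132 group (16 libraries) was fed a high fat diet for 11 weeks until obese and then given AM132, a 16-nt oligonucleotide with locked nucleic acid (LNA) bases directed against miR-132. The AM608 group (16 libraries) was made obese the same way and given AM608, an LNA oligonucleotide of 15 nt against miR-608, a miRNA of primates, which served as the control. Both oligonucleotides were injected intravenously at 3.3 mg/kg on 3 consecutive days, and tissue was taken 7 days after treatment. The RCD group (12 libraries) held lean, age-matched mice on regular chow, for which the labels describe no injection, so diet and injection cannot be told apart against it. Of the AM132 and AM608 libraries, 4 each came from batch 1, 4 each from batch 3 and 8 each from batch 2. The RCD libraries fell into batch 4 (8) and batch 2 (4). The labels do not say what a batch marks, nor that each library came from a separate animal, so p-values measure the spread between these samples. In bulk tissue, fewer cells of a type and less RNA per cell cannot be told apart.

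Transfer RNAs carry amino acids to the ribosome and fold into a cloverleaf with a D arm, an anticodon arm, a T arm and an acceptor stem, to whose 3' end an enzyme adds the bases CCA. Nucleases cut them in the loops, angiogenin in the anticodon loop for instance, and the pieces are classed by place: 5'-half and 3'-half fragments from a cut in the anticodon loop, shorter 5'-tRFs and 3'-tRFs from either end, and internal tRFs (i-tRFs) that reach neither end. In the brain such fragments have been tied to stress responses and to the control of translation and of transcript stability.

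The sequences below show the most counted fragment of each amino acid that can be printed, and the fragments on which the batch comparisons turn. Sequences are those of the deposited table, written 5' to 3', and capitals mark a CCA or CC at the 3' end of the tRNA.
Ala tRF-18-8R6Q46D2: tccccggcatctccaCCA
Ala tRF-18-8R6546D2: tccccggcacctccaCCA
Cys, bases 59 to 75: tccgggtgccccctCCA
Gln tRF-18-H9R8B7D2: atctcggtggaacctCCA
Tyr tRF-18-HSQSD2D2: atccggctcgaaggaCCA
Trp tRF-21-WB8HWKS5D: tcgaatcacgtcggggtcaCC
Met tRF-21-WB0Q37Q5D: tcgaaaccatcctctgctaCC
Asn tRF-41-YDLBRY73W0K5KKOVD: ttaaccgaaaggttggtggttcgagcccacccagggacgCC
Asn tRF-38-U1O0789NLJK1JK8: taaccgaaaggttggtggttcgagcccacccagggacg
Asp tRF-38-L85DMKYUYRLHR0D2: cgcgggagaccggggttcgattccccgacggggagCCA
Asp tRF-36-2VR008R959KUMKB: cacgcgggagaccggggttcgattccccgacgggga
Asp tRF-23-897PVP94Z: tcctcgttagtatagtggtgagt
Arg tRF-20-40KK5Y93: ctaagccagggattgtgggt
Thr tRF-23-BSDEL87SR: aaccgaagatcgcgggttcgaac
Thr tRF-36-UD10H7RNLEKPM4D: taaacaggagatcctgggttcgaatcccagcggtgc
Ile tRF-23-U4307W5NDL: taatgccgaggttgtgagttcga
Phe tRF-40-FIO2WO1M38YU8SRZ: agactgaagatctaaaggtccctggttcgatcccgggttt
Pro, bases 1 to 33: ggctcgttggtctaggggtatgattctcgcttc

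The Gln fragments on which the batch comparisons turn share a stretch of 19 bases, set in capitals in the next lines, of which tRF-21-NB8PLML3E holds the first 18. Both DRFU8U fragments begin at its first base, and the other 3 begin 3 or 4 bases before it and carry the anticodon CTG in their first lower-case bases.
Gln tRF-19-DRFU8U25: AATCCAGCGATCCGAGTTC
Gln tRF-23-DRFU8U767: AATCCAGCGATCCGAGTTCaaat
Gln tRF-22-NB8PLML35: ctgAATCCAGCGATCCGAGTTC
Gln tRF-21-NB8PLML3E: ctgAATCCAGCGATCCGAGTT
Gln tRF-23-WUH6QE3005: tctgAATCCAGCGATCCGAGTTC

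Depth was 38619 to 221358 tRF counts and 3020192 to 5997234 miRNA counts per library, and the 168 fragments took 2.97% to 13.0% of the tRF counts. Levels below are tRF counts brought to a common library size (CPM) by TMM scaling over the 44 libraries; each fragment is a whole read, so no division by length applies. Brain miRNAs (4 of 4 on the list, among them miR-124-3p and miR-9-5p) summed to 181706 to 343471 CPM of the miRNA table in every library. A list of 6 pituitary miRNAs summed to 19612 CPM in AM132 library 6 and 22526 CPM in AM608 library 5 and to at most 408 CPM in every RCD library. The target of AM132, miR-132-3p, had 62.3 to 628 CPM in the AM132 libraries of batch 2. All lay below the 639 to 863 CPM of the AM608 libraries of that batch. In batch 1 it had 960 to 1185 CPM with AM132 and 1154 to 1228 CPM with AM608. In batch 3 it had 789 to 1219 CPM with AM132 and 978 to 1243 CPM with AM608. The groups thus overlapped in batches 1 and 3.

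Amino acids differed in how many fragments they gave and in how evenly the counts were spread. Asp gave 44 fragments, Gln 29, Met 24, Ala 21, Asn 17, Thr 9, Arg, Cys and Tyr 6 each, Ile and Pro 2 each, and Phe and Trp 1 each. Ala held 25.8% of the counts of the 168 fragments, Gln 19.9%, Asn 12.3%, Asp 11.9%, Cys 11.8%, Met 7.23% and Tyr 5.34%, and none of the others exceeded 2.74%. In Ala, Cys, Tyr and Arg a single sequence was at least as frequent as all the others together: tRF-18-8R6Q46D2 held 50.8% of the Ala counts, the printed Cys fragment held 58.8% of the Cys counts, tRF-18-YSQSD2D2 held 51.5% of the Tyr counts and tRF-20-40KK5Y93 held 73.2% of the Arg counts. In Asp the most frequent fragment, tRF-38-L85DMKYUYRLHR0D2, held 10.2%, and in Met the most frequent held 11.4%. Of the 168 fragments 119 lie inside a longer one, so neighbouring values are not independent. The 168 hold 80.9% of the counts of all 7931 tRFs that name only one of these amino acids.

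Pieces of the 3' end made up most of the counts. The 57 fragments classed as 3'-tRFs held 56.5% of the counts, the 78 internal fragments 26.1%, the 11 3'-half fragments 10.3%, the 15 5'-tRFs 4.89% and the 7 5'-half fragments 2.20%. The 593 other tRFs of at least 220 counts, mostly of the abundant tRNAs or naming several amino acids, differed from this: 5'-tRFs held 36.5% of their counts, internal fragments 34.7%, 5'-half fragments 27%, 3'-tRFs 1.37% and 3'-half fragments 0.418%. These shares come from counts that also set the threshold and are given without a test.

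**Figure D1:**
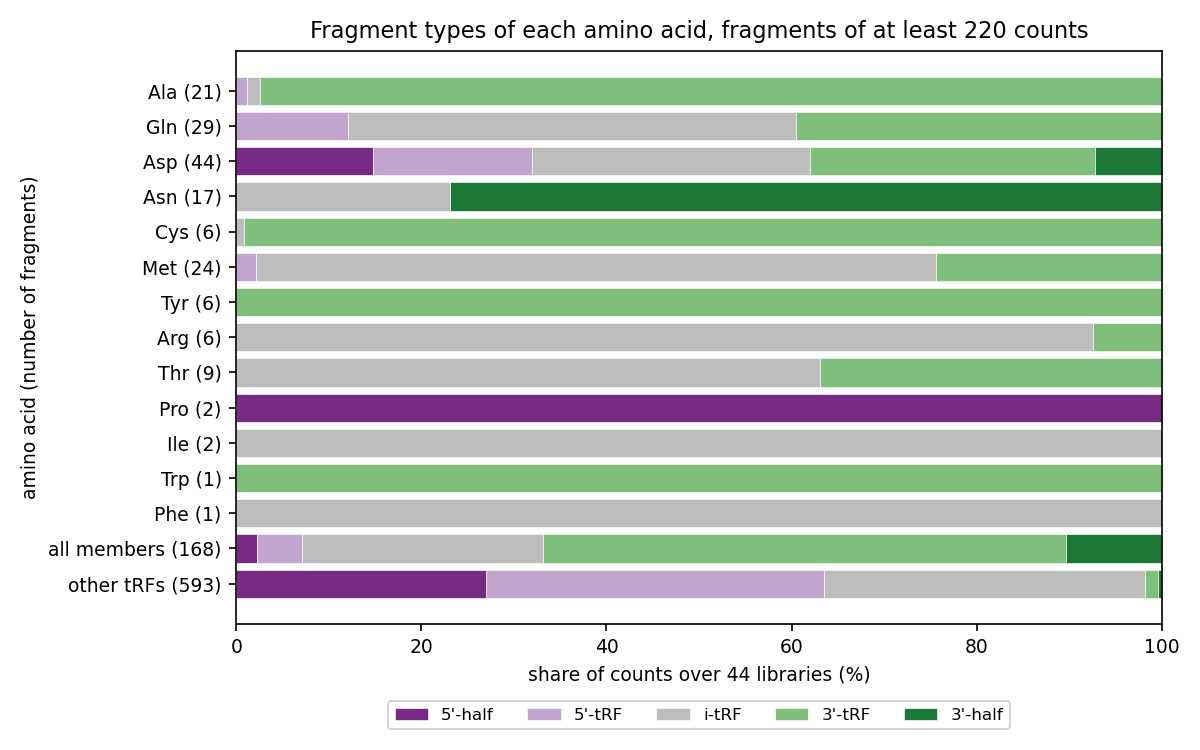
Share of counts by fragment type for each amino acid, for the 168 fragments together and for the 593 other tRFs of at least 220 counts; each bar sums to 100% of the counts of its set over 44 libraries. Ala, Cys and Tyr are almost all 3'-tRF, Asn is mostly 3'-half, Arg and Met are mostly internal, and the other tRFs are mostly 5'-tRF, internal and 5'-half.

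The place of the ends differed between amino acids. Of the Ala counts 97.4% were 3'-tRFs, 73.6% began at base 58, in the T arm, and 91.3% ended at base 75, the A of CCA; positions are those the table gives along each tRNA. Cys (99.1% 3'-tRF, 68.5% of counts beginning at base 59) and Tyr (100% 3'-tRF, 64.2% at base 59 and nearly all the rest at base 60) had the same shape. Trp had 1 fragment, a 3'-tRF from base 54 that ended at CC.

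Asn gave no 3'-tRF of this short kind. Its 6 3'-half fragments held 77.0% of its counts and its 11 internal fragments held 23%, and 63.9% of the counts began at base 36 and 31.1% at base 37, in the anticodon loop. Among the 3'-end pieces of Asn 60.8% of counts ended at CC and 19.9% at CCA, against 94.1% at CCA in Ala, 94.6% in Tyr, 96.0% in Gln and 86.7% in Cys. The most counted Asn fragment, tRF-41-YDLBRY73W0K5KKOVD, is 41 nt long and lacks the final A.

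Internal pieces held most of the Arg and Met counts and the highest share in Gln. Arg counts were 92.6% internal and all of these named the anticodon CCT, with 80.8% of Arg counts beginning at base 35. Gln was divided, with 48.5% of counts internal, 39.5% in 3'-tRFs and 12.0% in 5'-tRFs; 9 Gln fragments with 41.5% of the Gln counts began at base 37. Met split by tRNA: the 15 fragments of the initiator tRNA, which starts translation, were 55% internal and 41.4% 3'-tRF, while the 9 of the elongator tRNA were internal throughout and ended at bases 53 to 56. Asp was the most mixed, with 14.8% of counts in 5'-half fragments, 17.2% in 5'-tRFs, 30.8% in 3'-tRFs, 15 internal fragments holding nearly as much, and 7.16% in 3'-half fragments. Both Pro fragments ran from base 1 to base 33 and differ at their last base, C33T counted from base 1 at the 5' end with the base of the more counted one, printed above, first.

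Bases 36 to 38 were the first base of 49 fragments. Placed by sequence within longer tRFs of the same tRNA, 8 of them (all Asn) began on the middle base of the anticodon, 17 on its last base, 15 on the next base and 9 on the base after that. All 49 thus begin within or just after the anticodon, and the batch differences described further down lie mainly among them.

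**Figure D2:**
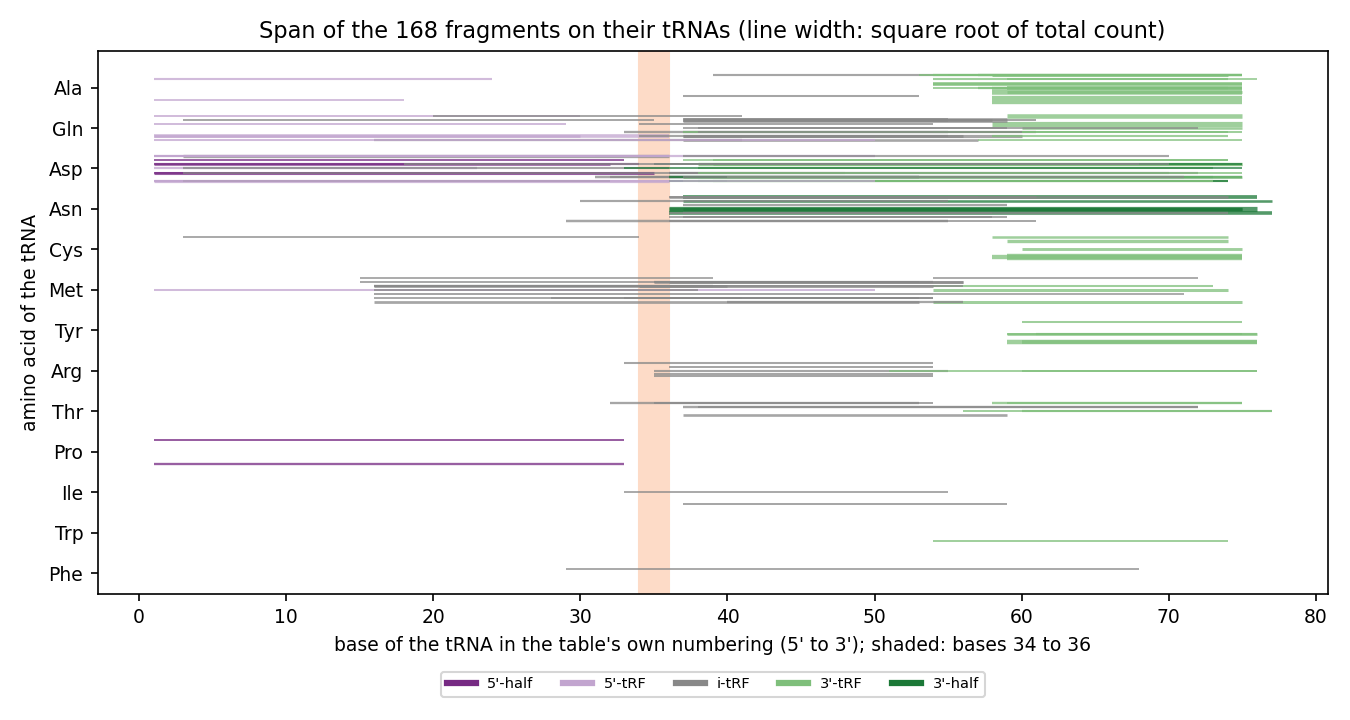
First to last base of each of the 168 fragments, by amino acid, in the table's numbering along each tRNA; line width grows with the square root of the total count over 44 libraries, and the shaded band marks bases 34 to 36. Ala, Cys and Tyr lines crowd at the 3' end from base 58 on, Asn and many Gln lines begin at bases 36 to 38, and Asp lines cover nearly the whole tRNA.

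Summed over all its tRFs, each amino acid varied by a few-fold or less between most libraries. Ala totals were 12043, 17597 and 18996 CPM (lowest, median and highest) in the AM132 libraries, 13848, 16970 and 24569 CPM in the AM608 libraries and 12211, 21629 and 26786 CPM in the RCD libraries. Gln totals were 11671, 16592 and 22104 CPM with AM132, 8481, 16109 and 24540 CPM with AM608 and 11621, 13312 and 18017 CPM in RCD. The 3 groups overlapped for both. By median over 44 libraries the order was Ala (17345 CPM), Gln (14984), Asp (9476), Asn (8692), Cys (7785), Met (6514), Tyr (3707), Arg (3562), Thr (2748), Pro (780), Ile (707), Trp (538) and Phe (400). Several neighbours in that order did not differ beyond the spread of the libraries: Ala stood above Gln in 25 of 44 libraries, Asp above Asn in 22, Asn above Cys in 27, Tyr above Arg in 21 and Pro above Ile in 23. Others were nearly always in the same order, with Cys above Met in 42 libraries, Met above Tyr in 43 and Thr above Pro in 44.

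The order followed the number of tRNA genes only in part, with Phe (7 genes) and Trp (8 genes) lowest in both. In the mouse annotation of RefSeq (GRCm38.p6) Cys has 56 tRNA genes and Ala 33, while Gln, Asp, Met, Ile and Pro have 16 each, and the totals of those last 5 ran from 62276 counts for Gln to 2817 for Ile.

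**Figure D3:**
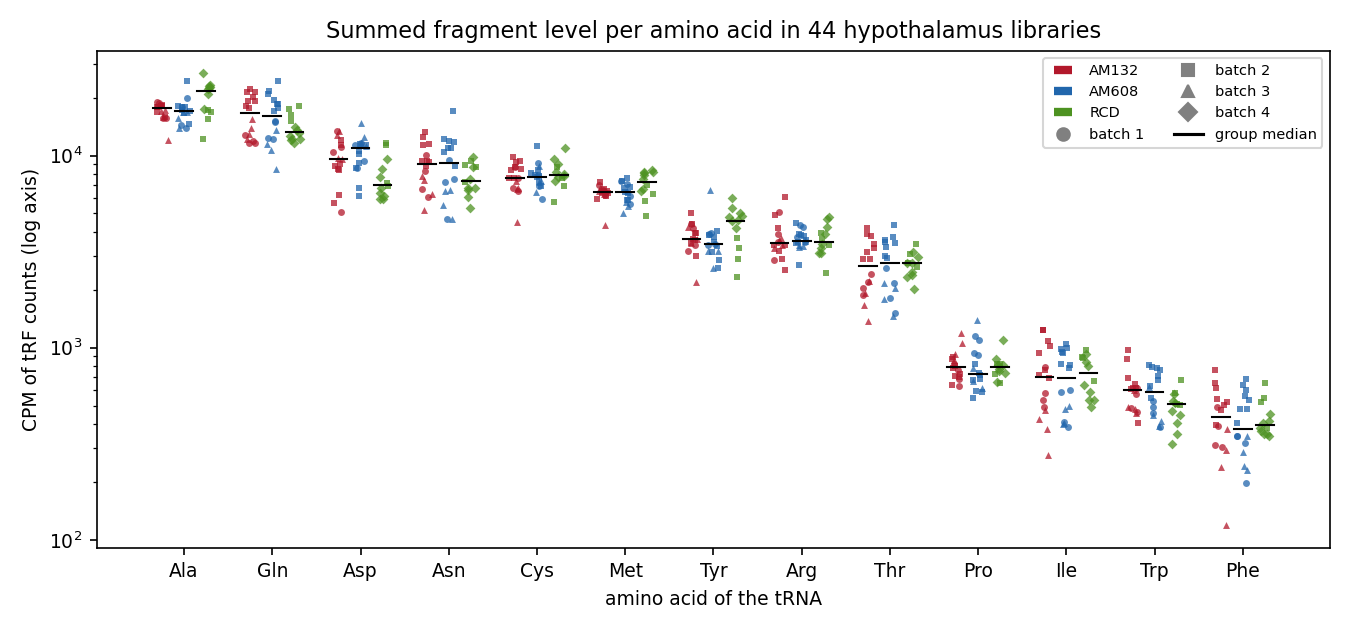
CPM (log axis) of the summed tRFs of each amino acid in each of 44 libraries; colour gives the group (AM132, AM608, RCD), the marker shape gives the batch and the black bar is the group median. Groups overlap in every amino acid, and the order runs from Ala, with a median of 17345 CPM, to Phe, with 400 CPM.

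Single fragments varied more than totals. The Ala fragment tRF-18-8R6Q46D2 had 4799, 8284 and 9532 CPM with AM132 (lowest, median, highest), 5862, 7908 and 12097 CPM with AM608 and 5040, 9697 and 11850 CPM in RCD. The Asp 3'-tRF tRF-38-L85DMKYUYRLHR0D2 had 28.8, 752 and 1282 CPM with AM132, 25.62, 905 and 2577 CPM with AM608 and 23.2, 187 and 1314 CPM in RCD. The Ala fragment thus stayed within a few-fold range, whereas the Asp fragment ran from 2 counts in its lowest library to 358 in its highest. Of the 168 fragments 126 had a count in every library. The Ile fragment tRF-23-U4307W5NDL, which begins on the last anticodon base, ran from 0 to 20 counts.

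The first comparison asks whether blocking miR-132 changed these fragments in obese mice. It did not move any of them past the test: with edgeR's quasi-likelihood test over 32 libraries, batch as a term and Benjamini-Hochberg adjustment over all 494 tested tRFs, 0 of 494 tRFs were called (0%) and so 0 of the 97 fragments tested. The other 71 of the 168 did not pass the filter on low counts. DESeq2 called 0 fragments too, and 1 of the 97 had an unadjusted p under 0.05, against 33 of all 494. The log2 changes (AM132 minus AM608) ran from -0.56 to 0.47 with a median of 0.03, beside 0.01 over all tested tRFs, and the median SE was 0.19; 61 of 97 were positive (62.9%, against 52.8% of all tested tRFs).

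The fragment with the smallest p was tRF-21-WB0Q37Q5D, a 3'-tRF of the initiator Met tRNA. It had 412, 551 and 732 CPM in AM132 libraries (lowest, median, highest) and 281, 462 and 694 CPM in AM608 libraries. The groups overlapped over most of their range, and 13 of 16 AM132 libraries lay above the AM608 mean of their batch. Its log2 change was 0.29 (SE 0.11, edgeR p = 0.0118, adjusted p = 0.64). The Thr 3'-tRF tRF-18-HRF8X7D2 had 73.0, 124 and 205 CPM with AM132 and 83.3, 148 and 400 CPM with AM608, a log2 change of -0.41 (SE 0.20, edgeR adjusted p = 0.64). The widest gaps had wide errors: the Asp tRF-35-QKF1R3WE8RO86J with -0.56 (SE 0.29) and the Gln 5'-tRF tRF-30-R9J89O9NF5W8 with 0.47 (SE 0.32), which had 43.1 to 1384 CPM with AM132 and 86.6 to 665 CPM with AM608.

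By amino acid, the medians of the tested fragments lay between -0.17 for Thr (1 of 5 positive) and 0.28 for Arg (2 of 2), with Gln at 0.10 (14 of 18), Met at 0.08 (10 of 12), Asn at 0.02 (7 of 12), Ala at 0.01 (8 of 15) and Asp at -0.02 (9 of 23). The sums over all tRFs of an amino acid changed by -0.06 (Asp, SE 0.09) to 0.09 (Tyr, SE 0.12), and in edgeR 0 of 22 amino acid classes were called (0%), with 0 of the 13 at an unadjusted p under 0.05 and a smallest adjusted p of 0.976. Whether the oligonucleotide effect differed between batches was tested as an interaction: edgeR called 5 of 494 tRFs (1.01%) and 0 of the 97 fragments, of which 4 had an unadjusted p under 0.05. AM132 libraries 5 and 6 and AM608 library 5 include the libraries rich in pituitary miRNAs. Leaving them out kept the counts of called fragments and called amino acid totals between AM132 and AM608 at 0.

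The second pair of comparisons sets both obese groups against lean mice within batch 2, where all 3 groups were present. They share the 4 RCD libraries, so their values are given side by side and not as evidence for each other. For AM608 against RCD edgeR called 0 of 575 tRFs (0%) and 0 of 118 fragments tested (50 were not tested), while 8 of the 118 and 28 of the 575 had an unadjusted p under 0.05; by DESeq2 0 of the 118 and 1 of the 575 passed. For AM132 against RCD edgeR called 0 of 575 (0%) and 0 of 118, with 7 and 21 at an unadjusted p under 0.05; by DESeq2 0 passed. The median log2 change of the 118 was 0.14 for AM608 and 0.16 for AM132, beside 0.09 and 0.06 over all 575 tRFs, and the median SE was 0.30 in each.

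The leading fragments were pieces of Thr and Asn tRNAs that begin in the anticodon loop. The internal Thr fragment tRF-36-UD10H7RNLEKPM4D had 206, 309 and 434 CPM in AM608 libraries (lowest, median, highest) and 191, 251 and 343 CPM in AM132 libraries, against 131, 151, 148 and 214 CPM in the 4 RCD libraries. Both obese groups overlapped RCD only at its highest library. The log2 change was 0.91 for AM608 (SE 0.25, edgeR p = 0.0015, adjusted p = 0.40) and 0.63 for AM132 (SE 0.25, adjusted p = 0.99).

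The Asn 3'-half tRF-40-YDLBRY73W0K5KKOV had 815, 1073 and 1848 CPM with AM608 and 875, 1037 and 1444 CPM with AM132, against 700, 732, 529 and 686 CPM in RCD. Neither obese group overlapped RCD, which held for 1 of 118 fragments and 4 of 575 tRFs (0.696%) with AM608 and for 1 of 118 and 1 of 575 (0.174%) with AM132. Its log2 change was 0.67 for AM608 (SE 0.25, edgeR adjusted p = 0.84) and 0.68 for AM132 (SE 0.25, edgeR adjusted p = 0.99). The sum of all Asn tRFs was 8822, 11348 and 17134 CPM with AM608 and 8842, 10357 and 13265 CPM with AM132, against 7288 to 9407 CPM in RCD; its log2 change was 0.39 for AM608 (SE 0.16, edgeR adjusted p = 0.49) and 0.28 for AM132 (SE 0.16, adjusted p = 0.48). All 14 tested Asn fragments had positive values for AM608 (11 of 14 for AM132), but 11 of 14 did with scaling by RLE or over both tables.

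Other amino acids gave single fragments with wide errors. The Pro 5'-half of anticodon CGG, printed above, had 14.4, 72.1 and 230 CPM with AM608 and 40.2, 158 and 250 CPM with AM132, against 146, 209, 218 and 164 CPM in RCD. Most AM608 libraries lay below RCD, and the AM132 libraries spread across it. The log2 change was -1.15 for AM608 (SE 0.46, edgeR adjusted p = 0.84) and -0.39 for AM132 (SE 0.45, adjusted p = 0.99). The Arg 3'-tRF tRF-26-1NLI38NJW1B, from a tRNA with anticodon ACG, had 34.4, 122 and 188 CPM with AM608 and 44.2, 120 and 211 CPM with AM132, against 43.8 to 77.8 CPM in RCD, with log2 changes of 0.90 (SE 0.37) and 0.91 (SE 0.37). The Gln 5'-tRF tRF-50-R9J89O9NF5W8E7OMJHHS of 50 nt had a log2 change of 0.23 for AM608 (SE 0.49) and 1.18 for AM132 (SE 0.47). No amino acid total was called in edgeR, 0 of 22 classes (0%) in either comparison, where the Asn and Pro totals had an unadjusted p under 0.05 for AM608 and the Tyr total for AM132. The Tyr total was 3014, 3814 and 5030 CPM with AM132 and 2341 to 3721 CPM in RCD, a log2 change of 0.32 (SE 0.15, edgeR adjusted p = 0.44).

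The third comparison stays within lean mice and sets the 8 RCD libraries of batch 4 against the 4 of batch 2. Here the fragments differed: Gln pieces that begin just after the anticodon were about 4-fold lower in batch 4, a few Asn and Asp pieces that begin on the last anticodon base were lower too, and some 3'-end pieces of Ala and Tyr were higher. In edgeR 20 of 99 tested fragments were called (69 were not tested), 9 higher and 11 lower, while over all tRFs 50 of 510 were called (9.8%), 4.51% higher and 5.29% lower. At an unadjusted p under 0.05 there were 43, and DESeq2 called 37. In 20 of the 99 the 2 batches did not overlap at all, against 49 of 510 tRFs (9.61%). The median log2 change of the 99 (batch 4 minus batch 2) was 0.29 beside -0.08 over all tested tRFs, and 67 of the 99 were positive, against 48.0% of all. The summed choroid plexus and ciliated-cell miRNAs (5 of 5 found, none at 0) were 1723 to 7673 CPM in batch 4 and 4615 to 5518 CPM in batch 2, and their part in these differences was not tested; without RCD library 2, the highest for that list, 25 fragments were called, 12 higher and 13 lower.

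The Gln fragment tRF-23-DRFU8U767 had 550, 735 and 991 CPM in batch 4 (lowest, median, highest) and 2787, 3426, 3057 and 3642 CPM in batch 2. Every batch 4 library lay far below every batch 2 library. Its log2 change was -2.06 (SE 0.20, edgeR adjusted p = 4.34e-05). The shorter tRF-19-DRFU8U25, with the same first base, had 267, 412 and 531 CPM in batch 4 and 1562, 2009, 1766 and 2064 CPM in batch 2, a log2 change of -2.15 (SE 0.21, edgeR adjusted p = 4.34e-05). All 7 tested internal Gln fragments that begin at base 37 were called lower, from -1.71 to -2.15, and their sum with the 1 such fragment that was not tested was 2135 ± 169 CPM in batch 4 (SD, n = 8) and 8671 ± 703 CPM in batch 2 (SD, n = 4). These 8 share their first 19 bases, so their values are not independent of each other.

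Gln fragments that begin 3 or 4 bases earlier, with the anticodon still attached, were not called lower. The fragment tRF-23-WUH6QE3005 (bases 33 to 55) had 160, 248 and 420 CPM in batch 4 and 43.8, 174, 140 and 129 CPM in batch 2, overlapping at 1 library, with a log2 change of 1.23 (SE 0.36, edgeR adjusted p = 0.047). This call was lost in 8 of 10 alternatives, among them the fits without RCD library 9 (log2 change 0.99), 11 (1.26), 12 (1.14) or 2 (1.28). The fragment tRF-21-NB8PLML3E (bases 34 to 54) had 64.6, 115 and 164 CPM in batch 4 and 58.4, 23.2, 46.7 and 42.8 CPM in batch 2, with no overlap and a log2 change of 1.52 (SE 0.34, edgeR adjusted p = 0.015), which was not called without RCD library 10 (1.37) or 12 (1.40). The fragment tRF-22-NB8PLML35 (bases 34 to 55), named after its values were seen, had a log2 change of -0.77 (SE 0.28, edgeR adjusted p = 0.11). The log2 ratio of bases 33 to 55 over bases 37 to 55, 2 fragments with the same 3' end, had a median of -0.40 in batch 4 and of -3.79 in batch 2. It was not tested. The ratio leaves out tRF-22-NB8PLML35, which also ends at base 55 and keeps the anticodon but had a negative change. The Gln 3'-tRF tRF-18-H9R8B7D2 (bases 58 to 75), which lists tRNAs with anticodon CTG only, had 2573, 3087 and 4201 CPM in batch 4 and 1073 to 2408 CPM in batch 2. Its log2 change of 0.90 (SE 0.28) missed the test (edgeR adjusted p = 0.064).

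**Figure D4:**
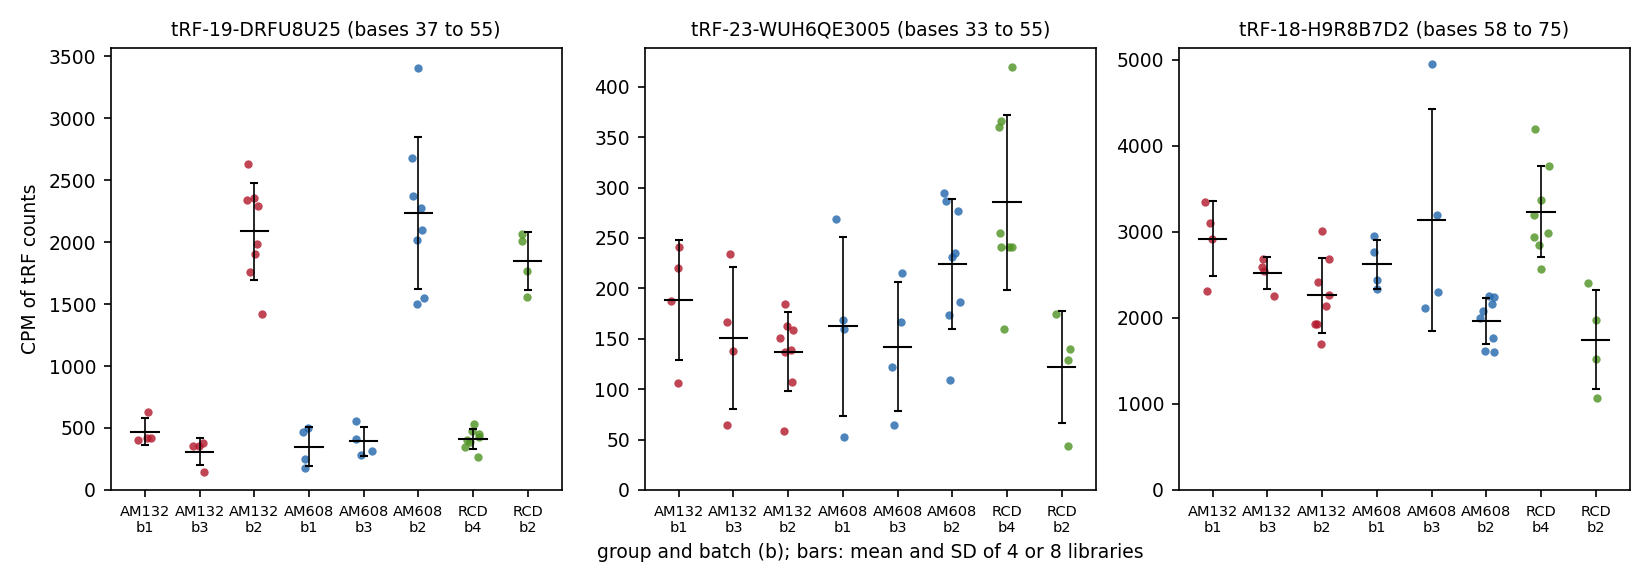
CPM in each library of 3 Gln fragments, tRF-19-DRFU8U25 (bases 37 to 55), tRF-23-WUH6QE3005 (bases 33 to 55) and tRF-18-H9R8B7D2 (bases 58 to 75), by group and batch, with mean and SD. The fragment from base 37 has 1423 to 3407 CPM in the AM132 and AM608 libraries of batch 2 and at most 633 CPM in those of batches 1 and 3, while the other 2 fragments overlap between those batches.

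A few Asn and Asp fragments with a 5' end at base 36 or 37 were also lower, 2 of each. Of the 10 tested Asn fragments that begin there 7 had negative values and 3 positive ones, and 2 were called; of the 9 tested 3'-half fragments none was called. The Asn tRF-38-U1O0789NLJK1JK8 (bases 37 to 74) had 63.7, 114 and 157 CPM in batch 4 and 394, 372, 257 and 364 CPM in batch 2, without overlap, a log2 change of -1.59 (SE 0.28, edgeR adjusted p = 0.0034). The Asp tRF-36-2VR008R959KUMKB (bases 36 to 71) had 21, 99.4 and 160 CPM in batch 4 and 321, 267, 311 and 257 CPM in batch 2, also without overlap, a log2 change of -1.55 (SE 0.36, edgeR adjusted p = 0.016). The Asn tRF-23-U1O0789NDL and the Asp tRF-37-2VR008R959KUMKH were also called lower, by -1.51 and -1.35. All 11 lower calls begin at base 36 or 37: 7 (Gln) on the base after the anticodon and 4 (Asn and Asp) on its last base. Among Asn fragments that begin 1 base earlier, on the middle anticodon base, the most counted, tRF-41-YDLBRY73W0K5KKOVD, had 1747, 2195 and 3044 CPM in batch 4 and 1851 to 2439 CPM in batch 2, a log2 change of 0.07 (SE 0.24).

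By first base, 23 of the 29 tested fragments that begin at bases 36 to 38 were lower in batch 4, with a median of -1.12, and 11 were called. Of the 32 that begin at base 53 or later 31 were higher, with a median of 0.46, and 5 were called; 26 of 32 were higher with scaling over both tables. The sum of the 49 fragments beginning at bases 36 to 38 was 10946 ± 1017 CPM in batch 4 (SD, n = 8) and 20941 ± 1717 CPM in batch 2 (SD, n = 4), and that of the 45 beginning at base 53 or later was 41427 ± 3846 CPM and 28621 ± 5260 CPM. Of the tested tRFs outside the 168, 12 of 12 that begin at bases 36 to 38 were lower (median -0.75, 2 called). From base 53 on 21 of 22 were higher (median 0.61). Lower values outside the 168 were not confined to bases 36 to 38, as 40 of 53 from bases 39 to 52 were lower (5 called). From bases 33 to 35, 6 of 10 were lower there (2 called lower, 1 called higher), whereas 8 of 10 among the 168 were higher. The share of the 168 fragments' counts that ended at CCA was 60.2% to 64.8% in batch 4 and 43.8% to 51.8% in batch 2. CPM values are relative to the scaled size of each library, so the sums show unequal change between regions and no absolute amounts. Fragments high only in batch 2 could pass the threshold on summed counts through it, so the counts of lower fragments among the 168 are a description.

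The higher calls were 4 Ala fragments, 1 Tyr, 2 Gln and 2 Asp. The Tyr 3'-tRF tRF-18-HSQSD2D2 had 429, 552 and 724 CPM in batch 4 and 248, 221, 156 and 171 CPM in batch 2, without overlap, a log2 change of 1.46 (SE 0.27, edgeR adjusted p = 0.0047). The Ala 3'-tRF tRF-18-8R6546D2 had 3494, 4400 and 5426 CPM in batch 4 and 2393, 2009, 1618 and 2242 CPM in batch 2, again without overlap, a log2 change of 1.10 (SE 0.24, edgeR adjusted p = 0.013).

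Each Ala call fell on one of a pair of near-identical sequences. The partner of tRF-18-8R6546D2 is tRF-18-8R6Q46D2, the most counted of the 168, and the change between them is T10C, counted from base 1 at the 5' end with the base of tRF-18-8R6Q46D2 first. That partner had 8359, 10087 and 11850 CPM in batch 4 and 8552, 8687, 5040 and 7241 CPM in batch 2, overlapping, with a log2 change of 0.46 (SE 0.27, edgeR adjusted p = 0.29). Both 17-nt pairs had a like gap: tRF-17-8R6546J changed by 1.41 and its partner tRF-17-8R6Q46J by 0.24, and tRF-17-KSP1852 changed by 1.03 and its partner tRF-17-KSPM852 by 0.35. A 19-nt pair with the same change did not: tRF-19-HRMF3RE2 changed by 0.46 and its partner tRF-19-HRMFWRE2 by 0.28, and neither was called. The fragments with C list tRNAs with anticodons AGC or TGC, and those with T list CGC or TGC. The partners were named after their values were seen, the difference within a pair was not tested, and reads that differ at 1 base could be divided between such entries in counting. The longer tRF-22-WEKSP1852 changed by 2.04 (SE 0.52, edgeR adjusted p = 0.029) with 2 to 8 counts in the batch 2 libraries.

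Calls of lower fragments held under more alternatives than calls of higher ones. The lower calls are not independent results, since 7 of them are Gln fragments that share their first 19 bases. Fragments high only in batch 2 could also pass the threshold through it. Of the 11 lower calls, 10 were followed through 10 alternatives (scaling, filter, DESeq2, and leaving out RCD library 9, 10, 11, 12 or 2), and all 10 stayed called in each. None of the 9 higher calls did: tRF-18-HSQSD2D2 held in 9 of 10, tRF-17-8R6546J and tRF-18-8R6546D2 in 8, tRF-17-KSP1852, tRF-22-WEKSP1852 and tRF-21-NB8PLML3E in 6, tRF-23-897PVP94Z and tRF-30-897PVP941QKS in 5 and tRF-23-WUH6QE3005 in 2. Single libraries decided several: tRF-17-KSP1852 was lost without RCD library 11 (log2 change 0.94) or 12 (0.86), tRF-22-WEKSP1852 without 9 (1.93), 11 (1.92) or 12 (2.04), tRF-23-897PVP94Z without 10 (1.00), 11 (1.01) or 12 (0.76), and tRF-30-897PVP941QKS without 9 (1.67), 11 (1.30) or 12 (1.20). Among all called fragments the split was 9 higher and 11 lower, but 1 higher and 16 lower both with no filter and with a filter of 10 CPM.

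Summed by amino acid, Tyr and Ala were higher and Gln was lower in batch 4; over all 22 amino acid classes edgeR called 5 (22.7%). Tyr tRFs summed to 4195, 4814 and 6048 CPM in batch 4 and 2341, 3086 and 3721 CPM in batch 2 (lowest, median, highest), a log2 change of 0.69 (SE 0.17, edgeR adjusted p = 0.0087). Ala tRFs summed to 17441, 22574 and 26786 CPM in batch 4 and 12211, 16221 and 17249 CPM in batch 2, a log2 change of 0.53 (SE 0.17, edgeR adjusted p = 0.037). Gln tRFs summed to 11621, 12418 and 14066 CPM in batch 4 and 15065, 16844 and 18017 CPM in batch 2, a log2 change of -0.38 (SE 0.13, edgeR adjusted p = 0.037). The batches did not overlap in any of the 3. The Tyr call held without each RCD library left out, but Ala was not called without RCD library 11 (0.39) or 12 (0.43), nor Gln without 9 (-0.32) or 10 (-0.36). The other 10 of the 13 were not called in this fit, with Asp at -0.35 (SE 0.14, adjusted p = 0.084) and Met at 0.37 (SE 0.16, adjusted p = 0.089) in edgeR the nearest. More of the 13 were called with RLE scaling and with TMM over both tables, as given at the end.

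Because the RCD batches differed, batch 1 and batch 3 were each compared with batch 2 in the 32 AM132 and AM608 libraries, with group as a term; this comparison was chosen after the RCD values were seen. Far more tRFs differed than between the treatment groups. Between batch 1 and batch 2 edgeR called 159 of 628 tRFs (25.3%, 9.39% higher and 15.9% lower) and 49 of 134 tested fragments, 13 higher and 36 lower. Between batch 3 and batch 2 it called 340 of 628 (54.1%, 24.7% higher and 29.5% lower) and 64 of 134 fragments, 15 higher and 49 lower. The libraries did not overlap in 11 of the 134 fragments between batch 1 and batch 2 (18 of 628 tRFs, 2.87%) and in 23 between batch 3 and batch 2 (44 of 628, 7.01%). The choice of scaling moved these splits: they were 37 higher and 31 lower for batch 1 and 51 higher and 30 lower for batch 3 with TMM over both tables, where the median over all tRFs was 0.38 and 0.53 in place of 0.13 and -0.08.

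Fragments with a 5' end at bases 36 to 38 were lower in batches 1 and 3 as well. Because fragments were kept on counts summed over all batches, those high only in batch 2 could enter through it. The counts of lower fragments are therefore a description. Of the 42 tested, 32 were lower in batch 1 (28 called, median -1.09) and 35 in batch 3 (31 called, 2 called higher, median -1.74), and 30 were lower in each (24 called in batch 1, 26 in batch 3) with TMM over both tables. Among tested tRFs outside the selected fragments, 10 of 16 from bases 36 to 38 were lower in batch 1 (9 called). In batch 3, 11 of 16 were lower (10 called lower, 1 called higher). Lower values there were not confined to these bases. From bases 39 to 52, 54 of 60 were lower in batch 1 (23 called). In batch 3, 53 of 60 were lower (43 called lower, 4 called higher). From bases 33 to 35, 15 of 17 were lower in batch 1 (8 called) and 16 of 17 in batch 3 (13 called). All 11 fragments called lower between the RCD batches were also called lower in batch 1 and in batch 3 under every scaling run. The Gln tRF-23-DRFU8U767 had 448, 753 and 1007 CPM in batch 1 (lowest, median, highest of 8 libraries) and 266, 537 and 742 CPM in batch 3, against 2757, 3912 and 5153 CPM in batch 2 (16 libraries), with log2 changes of -2.31 (SE 0.21) and -2.93 (SE 0.22) and edgeR adjusted p of 9.70e-10 and 4.47e-12. The sum of the 8 internal Gln fragments from base 37 was 2248 ± 491 CPM in batch 1, 1472 ± 464 CPM in batch 3 and 10030 ± 1487 CPM in batch 2 for AM132, and 1640 ± 572, 1590 ± 275 and 10679 ± 2156 CPM for AM608 (SD, n = 4, 4 and 8). No library of batch 2 was under 6878 CPM, and no library of another batch, RCD batch 4 included, was above 2732 CPM.

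The list of lower fragments was wider here, but fragments were kept on counts summed over all batches. The 3 Gln fragments from base 38, of 258 to 355 counts each, together averaged 480 CPM with AM132 and 475 CPM with AM608 in batch 2. In batches 1 and 3 they averaged 84.1 and 93.3 CPM with AM132 and 57.9 and 45.3 CPM with AM608. They thus passed the threshold largely through batch 2, and their lower values elsewhere are a description. Gln fragments from base 38 fell, tRF-24-H6QE30YOF3 by -2.74 and -2.30 (batch 1 and batch 3, log2), as did the Thr tRF-23-BSDEL87SR by -1.24 and -1.72, the Ile tRF-23-U4307W5NDL by -1.72 and -2.70, the Phe tRF-40-FIO2WO1M38YU8SRZ by -1.05 and -1.69 and the Asn 3'-half tRF-40-U1O0789NLJK1JKE1 by -1.17 and -1.75. The Thr fragment had 73.9, 203 and 340 CPM in batch 1 and 100, 130 and 284 CPM in batch 3, against 303, 521 and 637 CPM in batch 2. Only batch 3 stood clear of batch 2 for that fragment. Not every piece cut there fell: the Asn tRF-41-YDLBRY73W0K5KKOVD, from the middle anticodon base, changed by -0.21 (SE 0.17, edgeR adjusted p = 0.38) in batch 1 and by -0.48 (SE 0.18, adjusted p = 0.022) in batch 3. Nor were the lower calls confined to such 5' ends: the Gln tRF-22-NB8PLML35, which keeps the anticodon, was called lower by -1.05 and -1.72. One Arg 3'-tRF, tRF-26-1NLI38NJW1B, was lower by -1.69 in both and begins at base 51.

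Some fragments of the 5' side of Asp and Pro tRNAs were higher. Of the 17 tested fragments that begin at base 1, 4 were called higher in batch 1 and 4 in batch 3. In batch 3, 1 of them was called lower. Higher calls from base 1 were not confined to the selected fragments. Among the other tested tRFs that begin there, 31 of 147 were called higher in batch 1 and 6 lower. In batch 3, 39 of these 147 were called higher and 26 lower. Over all 628 tested tRFs, 9.39% were called higher in batch 1 and 24.7% in batch 3. The Asp tRF-36-897PVP941QKS3WD (bases 1 to 36) had 273, 994 and 1699 CPM in batch 1 and 740, 963 and 1282 CPM in batch 3, against 34.1, 360 and 676 CPM in batch 2. Batch 3 did not overlap batch 2, and batch 1 did. The log2 changes were 1.55 (SE 0.30) and 1.49 (SE 0.30), with edgeR adjusted p of 0.00019 and 0.00015. The Asp tRF-34-4WVLV470VR31KD (bases 3 to 36) changed by 1.33 and 2.04 and the Pro 5'-half by 1.128 and 1.15, each called in both. Between the RCD batches the same Asp and Pro fragments changed by 0.38, -0.50 and 0.05, and none was called.

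Of the 9 fragments that were higher in RCD batch 4, 8 were tested here, and 4 were called higher in batch 1, all Ala: tRF-17-8R6546J, tRF-18-8R6546D2, tRF-17-KSP1852 and tRF-22-WEKSP1852. In batch 3 tRF-22-WEKSP1852 was called higher by 0.88 (1.19 in batch 1), and the Asp tRF-23-897PVP94Z was called lower by -1.13. The fragments from base 53 on had medians of -0.02 in batch 1 and -0.31 in batch 3, or 0.22 and 0.31 with TMM over both tables, so their direction turned with the scaling. The summed choroid plexus and ciliated-cell miRNAs were 1393 to 2569 CPM in batches 1 and 3. In the AM132 and AM608 libraries of batch 2 they were 3569 to 5003 CPM. Brain miRNAs were 283767 to 343471 CPM in batches 1 and 3 and 181706 to 279054 CPM in those of batch 2. Liver miR-122-5p was 12.5 to 38.3 and 40.4 to 60.6 CPM. Within the AM132 and AM608 libraries none of these lists overlapped between batch 2 and batches 1 and 3, whereas the muscle, blood and pituitary lists did. The part of these lists in the batch differences was not tested.

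**Figure D5:**
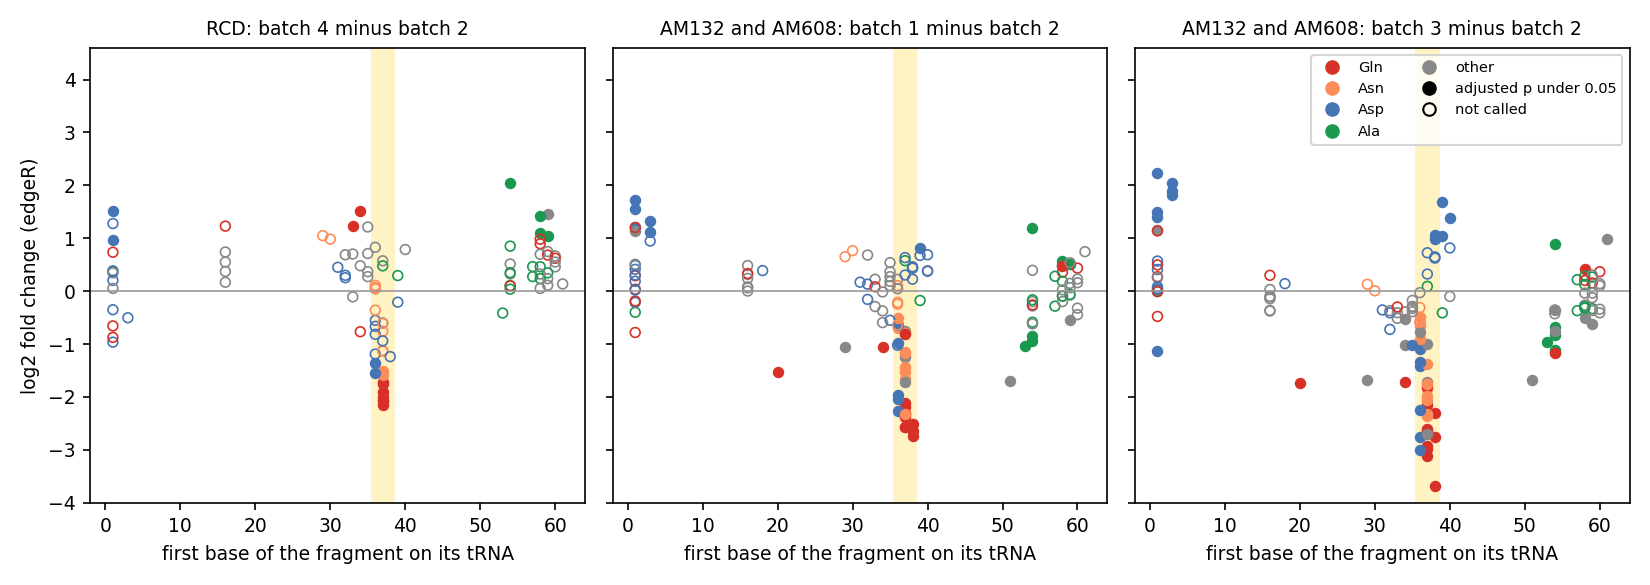
Log2 change of each tested fragment against the position of its first base, in 3 panels: RCD batch 4 minus batch 2, and batch 1 minus batch 2 and batch 3 minus batch 2 of the AM132 and AM608 libraries; filled points have an adjusted p under 0.05 in edgeR, colours mark Gln, Asn, Asp and Ala, and the shaded band covers bases 36 to 38. Most filled points below 0 lie in the band in every panel, and the Gln fragments from base 37 are among the lowest.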

How the data were processed

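Small RNA of 44 hypothalamus libraries was counted by the authors in 2 deposited tables of raw counts, one per tRF and one per mature miRNA, each value an unnormalised count. FastQC is named in the submitters' processing notes; trimming, aligner, genome build and tRNA reference are not given in the sources used here. Of the 17051 tRFs 421, none among the 168, list a chromosome numbered 20 to 22. Of the 168, 59 list a location past the last annotated mouse gene of its chromosome, and 157 list several locations. The locations were therefore not read as positions in the mouse genome. They served as labels of the source tRNA, to split initiator from elongator Met and to place the anticodon. Their chromosomes served in the rule on printed sequences. Each column names its group and replicate number, and 0 columns were of no sample. Even the closest pair of libraries differed (chi-square over its degrees of freedom 5.82), so none was counted as a duplicate.

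The fragments, marker lists and tests were chosen with earlier results of these data known. Fits used edgeR 4.0.16 (limma 3.58.1, R 4.3.3): filterByExpr by group (minimum count 10, minimum total 15), TMM scaling, quasi-likelihood F tests and Benjamini-Hochberg adjustment at 0.05 over all tested tRFs. AM132 against AM608 took 32 libraries and a batch term, both RCD contrasts a single model of 3 groups in batch 2 (20 libraries), the RCD batches 12 libraries, and batches 1 and 3 against 2 took 32 libraries and a group term. The SE is the size of the log2 change over the root of F. Amino acid totals sum all tRFs of 1 amino acid and were fitted over 22 classes. Alternatives were RLE scaling, TMM over both tables, DESeq2 1.42.0, a filter at 10 CPM, no filter, single batches, no batch term, all 44 libraries, a block for the replicate number, and libraries left out. The fits were tested on simulated data. Low totals make single fragments of a few counts per library imprecise, and without molecular identifiers reads are not independent molecules.

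Named fragments are those past adjusted p 0.05 whose mean is 10 CPM or more, at most 10 each way by p, or, if fewer than 5 pass, the 5 lowest in p; the most counted fragment of each amino acid; and that of smallest p of each amino acid in AM132 against AM608. Others (tRF-22-NB8PLML35, tRF-37-2VR008R959KUMKH, the partners that differ at 1 base, and the fragments named in batches 1 and 3) were named after their values were seen. Sequences of 12 of the 168 were left out by a rule on chromosomes. Tables and figures used pandas 2.3.3 and matplotlib 3.10.9.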

Additional observations from a re-analysis of the deposited data

Results flagged for a closer look

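AM608 library 12 stood apart from the other 7 AM608 libraries of batch 2 in 2 amino acid totals. Its Ala tRFs summed to 24568.5 CPM, against 14542 to 18180 CPM in the other 7, and its Cys tRFs to 11187.2 CPM, against 6907 to 8402 CPM. In each case the gap to the nearest library was larger than Dixon's limit for 8 samples allows. Of 52 groups of libraries looked at 2 were picked out in this way, and chance alone picks out about 1 in 20 groups. The same library had the highest levels of 3 leading fragments, the Ala tRF-18-8R6Q46D2 with 12097 CPM, the most counted Cys fragment with 6539 CPM and the Asn tRF-41-YDLBRY73W0K5KKOVD with 5601 CPM.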

How the results depend on the processing

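The counts of 0 called fragments between AM132 and AM608, and between each of them and RCD, were 0 under every alternative run, and so were those of amino acid totals with one exception: summed over tRFs of at least 220 counts only, 1 total was called for AM608 against RCD, the Pro total, lower by a log2 change of -1.23. Between the RCD batches 20 fragments were called, against 37 with DESeq2 (18 higher, 19 lower), 25 with RLE scaling (9 and 16), 30 with TMM over both tables (12 and 18), 17 both with no filter and with a filter of 10 CPM (1 and 16), and 14 to 25 with RCD library 9, 10, 11, 12 or 2 left out. The 3 called totals of the 13 amino acids became 5 with RLE scaling (2 higher, 3 lower) and 10 with TMM over both tables (3 and 7), and 2 to 4 with a library left out. For batch 1 against batch 2 the split of 13 higher and 36 lower became 20 and 36 with RLE scaling and 21 and 38 with DESeq2, and for batch 3 the split of 15 and 49 became 28 and 42 with either; scaling by TMM over both tables is given with the result. RLE scaling moved the median over all tRFs from 0.06 to -0.15 for AM132 against RCD, and TMM over both tables moved it from 0.09 to -0.06 for AM608 against RCD. The sign between AM132 and AM608, never called, turned in single batches for tRF-21-40KK5Y93E (-0.28 in batch 1), the most counted Pro fragment (-0.30 in batch 1, -0.31 in batch 3), tRF-25-U1O0789NLJ (-0.068 in batch 2), tRF-17-HSRVK7J (-0.054 in batch 3) and tRF-17-884U1D2 (-0.22 in batch 3). The causes of these shifts were not tested.

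Groups share replicate numbers, but the numbers did not pair the libraries: same-numbered AM132 and AM608 libraries correlated at -0.59 to 0.77 (median 0.08, 7 of 16 over 0.1), AM132 and RCD at -0.76 to -0.29, and AM608 and RCD at -0.54 to 0.60 (median 0.20, 2 of 4 over 0.1). With the replicate number as a block, 0 fragments and 0 totals were called in each treatment comparison, with 3, 8 and 9 fragments at an unadjusted p under 0.05 for AM132 against AM608, AM608 against RCD and AM132 against RCD. The RCD batches share no numbers, so no block could be fitted there.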
